A study of Drosophila melanogaster with 3 samples.

Results

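The genes described here are 10 Drosophila melanogaster genes of insulin signalling, adipokinetic hormone (Akh) signalling and glucose synthesis: InR, foxo, Thor, bmm, AkhR, PCB, Pepck1, Pepck2, fbp and srl. They were chosen as fly energy genes whose relatives are targets of the transcription factor CREB in other animals, and the choice was made with earlier results of these data known. They are 10 of 13945 protein-coding genes, and all 10 were found in the gene annotation. For each gene, every peak of CrebB-GFP with its summit in the gene or within 2000 bp of it was listed. These windows covered 164336 bp in all and held 17 distinct peaks of the authors' optimal list and 107 of their longer pooled list.

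CrebB is the fly relative of CREB, a basic leucine zipper protein that acts downstream of cyclic AMP and reads the cAMP response element (CRE), the palindrome TGACGTCA. In mammals, glucagon raises cyclic AMP in the liver during fasting, and CREB then switches on genes of glucose synthesis and the coactivator relative of srl. In flies, Akh acts through AkhR much as glucagon does, while insulin-like peptides act through InR and keep the forkhead factor foxo out of the nucleus.

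The data were chromatin immunoprecipitation and sequencing (ChIP-seq) of CrebB tagged at its C-terminus with green fluorescent protein, in whole embryos of both sexes, 0 to 24 hours old, from a transgenic line. There was 1 group of 3 biological replicates and no second genotype, treatment or stage, so peaks are described by position, by rank and by recurrence. The labels name neither the promoter of the transgene nor the state of the untagged gene, and a signal from whole embryos cannot be told apart by cell type. The antibody and assay labels name a ChIP of CrebB, which is how the samples were read, although a description field speaks of input controls. The pooled list and each replicate list held 30000 peaks, of which 10663 in the pooled list and 10907, 9441 and 8744 in replicates 1, 2 and 3 had a q-value under 0.05. Read numbers were not analysed here, so depth is unknown. The optimal list was made up of the 3915 strongest pooled peaks by signal, and ranks below count from the strongest pooled peak, rank 1.

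The sequences under the summits show which letters lay at the peaks that carry the results. They are RefSeq Release 6 sequence (dm6), printed 5' to 3' on the strand of the gene, in lower case with the motif named for each sequence in capitals. TATAAA, which also matched in some of them, is not marked. At Thor (chr2L:3478508-3478537, plus strand) and in the first intron of bmm at 5019 bp (chr3L:14781293-14781493, minus strand) and 6012 bp (chr3L:14780300-14780500, minus strand) the capitals mark GTAAACA, a forkhead site of the kind foxo reads, or its reverse complement, and at the former bmm peak also the E-box CACGTG. The E-box is marked as well in the first intron of InR (chr3R:21613408-21613608, minus strand) and at the start of srl (chr3R:4429284-4429313, minus strand). CGTCA, the reverse complement of the CRE core TGACG, is marked in the strongest peaks of bmm (chr3L:14784970-14785170, minus strand) and InR (chr3R:21590761-21590961, minus strand). The DNA replication-related element (DRE) TATCGATA is marked upstream of bmm (chr3L:14786494-14786594, minus strand). The foxo promoter peak (chr3R:14056568-14056768, plus strand) is shown for its low GC content and has no capitals, though TATAAA matched it on the other strand. The full CRE palindrome is marked in the fbp upstream sequence (chr2L:19765223-19765252, minus strand), which is not under a summit.
Thor, 5' UTR: aatacaaacaacgcagtttgtGTAAACAat
bmm, intron at 5019 bp: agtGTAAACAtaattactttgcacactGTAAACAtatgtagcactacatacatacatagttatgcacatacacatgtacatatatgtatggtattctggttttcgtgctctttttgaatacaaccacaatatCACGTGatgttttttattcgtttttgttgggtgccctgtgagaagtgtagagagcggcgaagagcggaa
bmm, intron at 6012 bp: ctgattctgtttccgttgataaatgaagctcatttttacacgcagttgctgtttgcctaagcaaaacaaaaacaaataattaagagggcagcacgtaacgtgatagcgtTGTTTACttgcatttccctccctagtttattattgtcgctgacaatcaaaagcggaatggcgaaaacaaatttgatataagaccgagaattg
InR, intron at 5813 bp: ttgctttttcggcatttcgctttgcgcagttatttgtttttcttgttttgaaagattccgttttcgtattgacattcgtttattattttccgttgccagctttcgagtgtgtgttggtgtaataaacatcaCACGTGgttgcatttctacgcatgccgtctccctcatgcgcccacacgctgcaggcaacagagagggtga
srl, 5' UTR: cgaatctcggtcCACGTGaacaaattttgg
bmm, intron at 1342 bp: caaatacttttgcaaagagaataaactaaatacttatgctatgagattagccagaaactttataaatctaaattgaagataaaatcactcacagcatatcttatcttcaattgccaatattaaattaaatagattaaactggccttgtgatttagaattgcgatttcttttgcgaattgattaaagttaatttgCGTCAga
InR, intron at 28460 bp: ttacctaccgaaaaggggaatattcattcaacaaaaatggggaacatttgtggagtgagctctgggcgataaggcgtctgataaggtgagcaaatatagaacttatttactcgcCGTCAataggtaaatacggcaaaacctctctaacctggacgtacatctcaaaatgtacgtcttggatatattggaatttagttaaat
bmm, upstream: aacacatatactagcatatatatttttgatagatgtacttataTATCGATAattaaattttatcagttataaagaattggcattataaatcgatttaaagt
foxo, upstream: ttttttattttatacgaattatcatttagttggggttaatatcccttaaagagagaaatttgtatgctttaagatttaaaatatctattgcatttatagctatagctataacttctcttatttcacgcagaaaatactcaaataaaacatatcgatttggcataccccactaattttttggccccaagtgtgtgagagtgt
fbp, upstream CRE: aagacttttctTGACGTCAacgaagcatat

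CrebB-GFP peaks were frequent at these genes and were strongest at bmm, InR and Thor. Of the 10 genes, 8 had an optimal peak in the window, against 32.7% of all protein-coding genes, and all but AkhR and fbp were among them. All 10 had a pooled-list peak, against 78.8% of all genes. Window length moves with these shares. All genes were put into 4 classes of about equal size by window length. Optimal peaks were found for 17.9% of the genes of class 1 with the shortest windows, which holds Thor, and Thor had one. In class 3, which holds Pepck1, fbp and AkhR, the share was 34.6%, and 1 of the 3 had one, Pepck1. In class 4 with the longest windows the share was 49.7%, and all 6 of InR, foxo, bmm, PCB, Pepck2 and srl had one. For Pepck2 it was the promoter peak of Pepck1, which is thus counted for both genes. Per length, the windows of the 10 genes held 1.03 optimal peaks per 10 kb, compared with 0.355 in the windows of all protein-coding genes. For pooled-list peaks the densities were 6.51 and 2.59 per 10 kb.

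An optimal summit lay within 500 bp of a transcription start site (TSS) at 7 of the 10 genes: InR, foxo, Thor, bmm, PCB, Pepck1 and srl. The share over all protein-coding genes was 18.7%. A pooled-list summit lay that near at 10 of 10, against 56.8%. These counts were lower when support by replicates was asked for. Optimal peaks supported by at least 2 replicates numbered 12 and were present at 6 genes (28.0% of all genes), and near a TSS at 3 (15.3%), a count added after the data were seen. Asking for support by a given pair removes more. Optimal peaks that replicates 2 and 3 both supported were present at 3 genes (22.2% of all genes), those of replicates 1 and 3 at 3 genes (21.8%) and those of replicates 1 and 2 at 6 genes (23.3%). The promoter counts were then 2, 2 and 3, against 11.4%, 11.1% and 12.1% of all genes, and the counts of optimal peaks 7, 8 and 11. Pooled-list peaks with a summit in both full lists numbered 36 without replicate 1, 36 without replicate 2 and 59 without replicate 3, and the genes with such a peak near a TSS numbered 6, 7 and 7, against 33.6%, 34.2% and 37.2% of all genes.

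**Figure D1:**
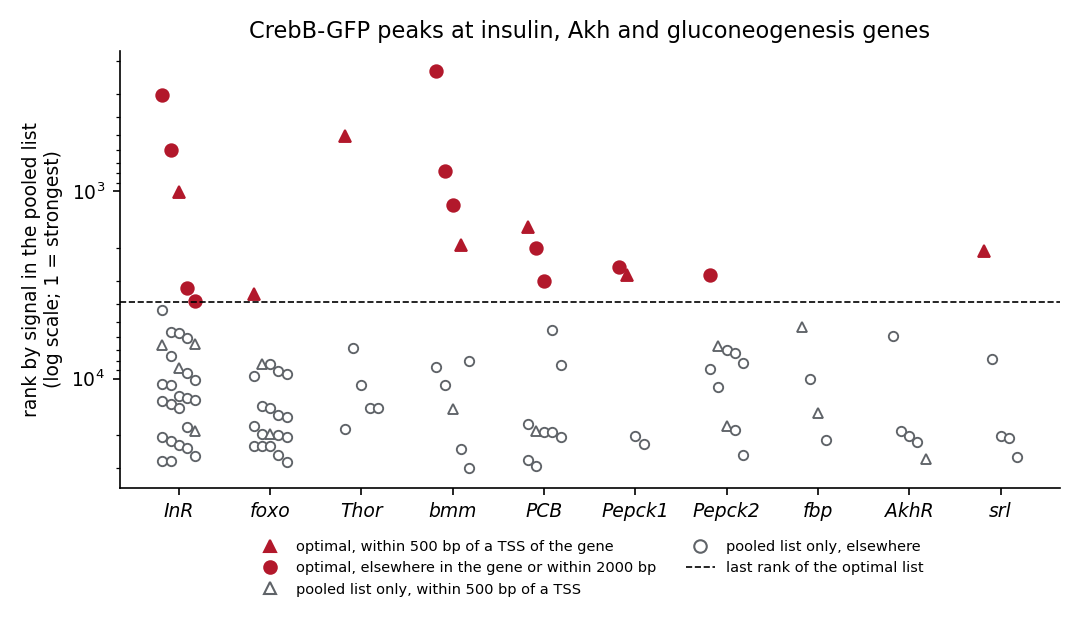
Each point is a pooled-list peak of 1 of the 10 genes, placed by its rank by signal (log axis, strongest at the top), with filled red symbols for optimal peaks, open grey symbols for the rest and triangles for summits within 500 bp of a TSS. The best ranks were 226 at bmm, 306 at InR and 506 at Thor, and fbp and AkhR had no point above the dashed line at rank 3915.

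The 17 optimal peaks were no stronger as a group than the optimal list. Their median rank was 1923, against 1958 for all optimal peaks, and 9 of them lay in the better-ranked 1957. By position, 7 lay within 500 bp of a TSS of these genes, 7 in introns beyond that distance and 3 outside the gene, and 0 lay in a coding exon. The same split over all optimal peaks was not made, so it does not set these peaks apart from the list. All but 3 shared the smallest q-value of the pooled list, 0.000164, which 3043 pooled peaks share. The exceptions were the peaks of InR at 34508 bp (q = 0.00039) and 4254 bp (q = 0.000456) and that of foxo (q = 0.000427). The weakest optimal peak, InR at 34508 bp, had rank 3843, and the strongest pooled-list peak outside the optimal list, in a coding exon of InR at 39064 bp, had rank 4314.

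A replicate was said to support a peak when it had a summit within 100 bp among its own 3915 peaks of highest signal. All 3 replicates supported 7 of the 17 optimal peaks (41.2%), and the share over all 3915 optimal peaks was 50%. The 17 peaks are clustered by gene and are not independent draws, so no interval is given for their share. The 7 were 3 peaks of InR, 3 of bmm and that of Thor. Support came from 2 replicates for 5 peaks and from 1 replicate for 5, and replicates 1, 2 and 3 supported 14, 11 and 11 peaks. In the full lists of 30000 peaks, 14 of the 17 had a summit in every replicate. That share over all optimal peaks was not counted, so 14 of 17 does not set these peaks apart from the list. The optimal list was derived from these replicates, so recurrence is a description of it and not an independent test.

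**Figure D2:**
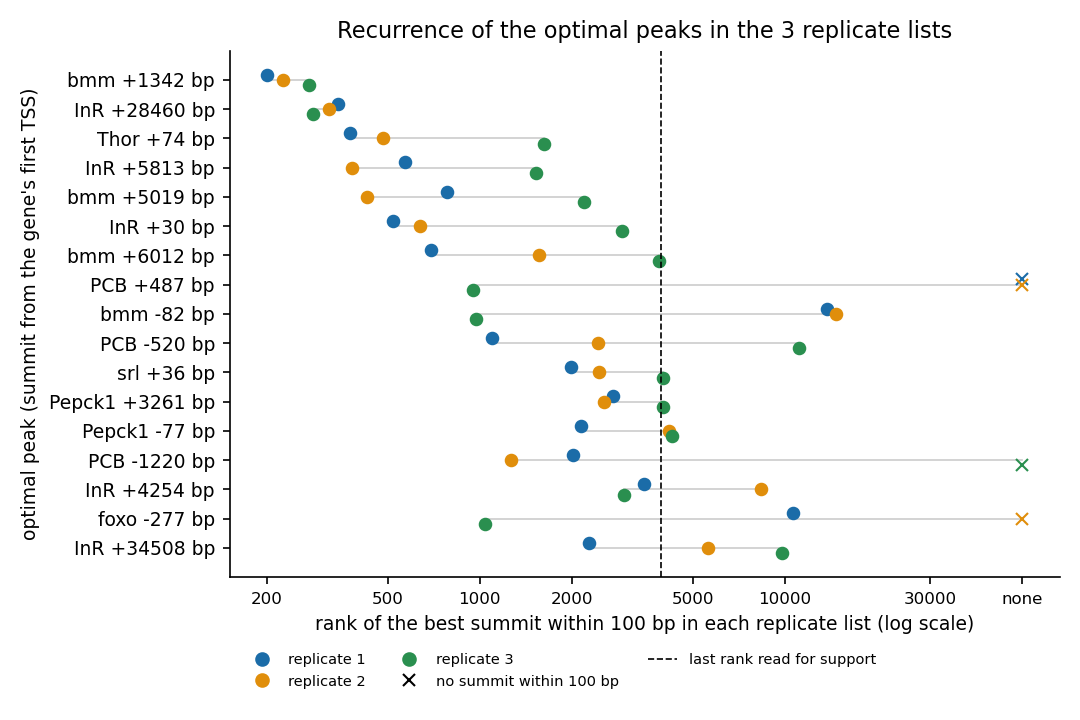
For each of the 17 optimal peaks, ordered by pooled rank, the 3 points give the rank of the best summit within 100 bp in the list of each replicate (log axis; a cross marks no summit). The peaks of bmm at 1342 bp and InR at 28460 bp had ranks between 201 and 344 in every replicate, while PCB at 487 bp had a summit in replicate 3 only.

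InR, the receptor of the insulin-like peptides, had the most peaks. It spans 49074 bp (FBgn0283499, chr3R:21570248-21619321, minus strand) and held 5 optimal and 32 pooled-list peaks. That many optimal peaks were found at 0.631% of all protein-coding genes and at 2.52% of those with the longest windows. That class runs from 8999 to 1969857 bp and the InR window is 53074 bp, so length is only roughly matched. Per length InR held 0.942 optimal peaks per 10 kb, against 1.03 over the 10 genes and 0.355 over all protein-coding genes. The strongest (chr3R:21590690-21590970, signal 546.1 in the authors' units, rank 306) lay in intron 2, 28460 bp from the first TSS and 670 bp upstream of the most internal TSS. Its ranks in replicates 1, 2 and 3 were 344, 320 and 284, and their summits lay within 12 bp of the pooled one. The replicates therefore placed this intronic peak almost alike.

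A second intronic peak of InR (chr3R:21613421-21613573, signal 393.1, rank 601) lay in intron 1 at 5813 bp, with ranks 567, 382 and 1529. The peak at the first TSS (chr3R:21619093-21619488, signal 309.9, rank 1004) had its summit in the 5' UTR 30 bp downstream, with ranks 520, 639 and 2932. Both were supported by all 3 replicates and were weakest in replicate 3. The remaining 2 were weaker and recurred less: the peak at 4254 bp (chr3R:21614869-21615264, signal 167.1) had ranks 3443, 8391 and 2967, and the peak at 34508 bp (chr3R:21584615-21585010, signal 153.5) had ranks 2289, 5609 and 9770. Of the 4 TSSs of InR, the first and second, 285 bp apart, shared the peak at the gene start. The 2 internal TSSs, at 27200 and 29130 bp, had only pooled-list summits, of ranks 6524 and 6607, at 49 and 15 bp upstream. In the replicates the best ranks near them were 7277, 3840 and 9616 for the former and 7471, 3822 and 24549 for the latter, so replicate 2 alone placed a summit there among its 3915 strongest. Weaker pooled summits of rank 8773 and 19126 lay 404 bp past the former and 423 bp past the second TSS.

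**Figure D3:**
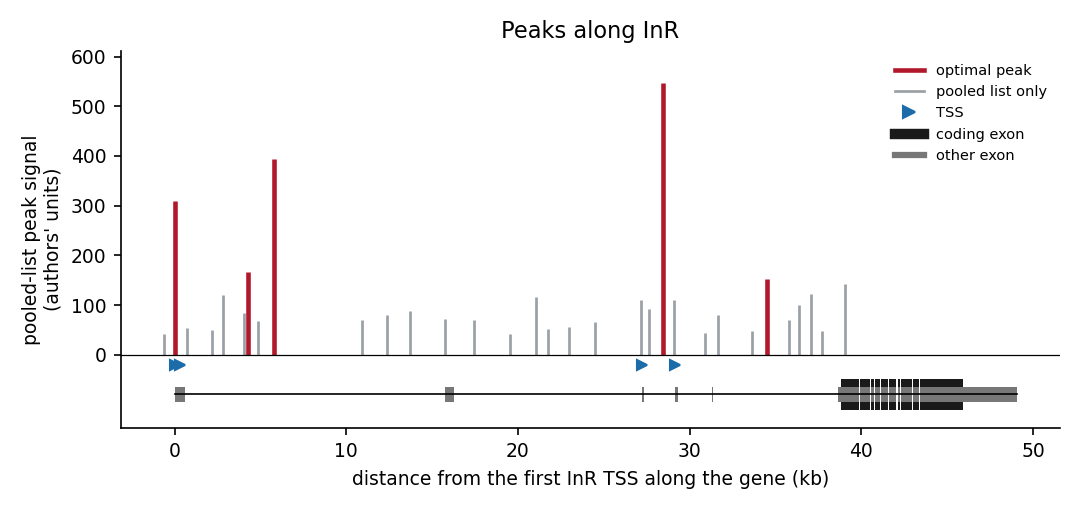
Peak signal of the pooled list (authors' units) along InR, by distance from its first TSS in kb, with optimal peaks in red, other pooled-list peaks in grey, TSSs as triangles and exons below. The 5 optimal peaks lay at the gene start and in introns upstream of the coding exons, and the highest, signal 546.1, stood between the internal TSSs.

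The transcription factor gene foxo, whose product insulin signalling inhibits, had a weak promoter peak within the searched distance. The gene (FBgn0038197, chr3R:14056945-14087978, plus strand) held 1 optimal and 20 pooled-list peaks. The optimal peak (chr3R:14056470-14056865, signal 161.6, rank 3515) lay 277 bp upstream of the first TSS, with rank 10633 in replicate 1, no summit in replicate 2 and rank 1039 in replicate 3. In its class by window length, 47.0% of genes had a peak of that rank or better. Replicate 2 had its own summit 24 bp upstream of the TSS, at rank 3513, near a pooled-list peak at 55 bp upstream of rank 8335 (signal 95.1, q = 0.0167) that replicate 1 had at rank 13264 and replicate 3 lacked. Replicates 2 and 3 thus put their foxo promoter summits at different places, and replicate 1 had a weaker summit near each. The second TSS, 974 bp downstream, had a pooled-list summit of rank 19691 only, 349 bp upstream of it, which replicate 1 had at rank 4328 and the others lacked within 100 bp.

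Past the 2000 bp limit, and so outside the counts above, foxo had much stronger upstream peaks. An optimal peak 3321 bp upstream of the gene (chr3R:14053462-14053733, signal 777.2) had rank 149 in the pooled list and ranks 194, 156 and 124 in replicates 1, 2 and 3. Another, 4624 bp upstream (chr3R:14052123-14052518, signal 289.3, rank 1114), had ranks 2176, 1095 and 777. The foxo TSS was the nearest protein-coding TSS to both, and each replicate supported both. The first is stronger than any peak within the windows of the 10 genes. It was examined because of its place just past the limit, after its value was seen. Of the 17 peaks inside the limit, only PCB at 1220 bp upstream lay more than 1000 bp from its gene. Within 5000 bp the number of optimal peaks was 23 and the number of genes with one 9, against 44.9% of all genes at that distance, the addition being fbp, whose new peaks (ranks 507 and 2951) lay 78 bp from the TSS of CG10628 and 12 bp from that of CG10631.

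Thor, the eIF4E-binding protein that restrains translation and is known as a target of foxo, had a sharp peak at its start. It is the shortest of the 10 genes (FBgn0261560, chr2L:3478434-3479612, plus strand, 1179 bp), with 1 optimal and 6 pooled-list peaks. The optimal peak (chr2L:3478435-3478562, signal 426.8, rank 506) was 128 bp wide, against a median of 396 bp, and its summit lay in the 5' UTR, 74 bp downstream of the first and 14 bp upstream of the second TSS. Replicates 1, 2 and 3 gave it ranks 376, 482 and 1623, with summits within 22 bp. A peak as high in rank was found at 3.07% of the genes with windows as short. The next pooled-list peak, 1782 bp from the first TSS and past the gene's end, had rank 6880. A width under the median was not particular to Thor. The strong peaks of InR at 5813 and 28460 bp were 153 and 281 bp wide, and that of bmm at 1342 bp was 304 bp wide.

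The lipase gene bmm, the fly relative of the mammalian adipose triglyceride lipase and also known as a target of foxo, had the strongest peak within the windows. The gene (FBgn0036449, chr3L:14776496-14786412, minus strand) held 4 optimal and 10 pooled-list peaks, and as many optimal peaks were found at 1.3% of all genes and 4.79% of those with the longest windows. The strongest lay in intron 1, 1342 bp from the only TSS (chr3L:14784912-14785215, signal 633.4, rank 226), with ranks 201, 226 and 275. The replicates gave it much the same rank.

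The same intron of bmm, 6896 bp long, held 2 more. At 5019 bp (chr3L:14781195-14781590, signal 351.2, rank 773) the ranks were 778, 426 and 2199, and at 6012 bp (chr3L:14780202-14780597, signal 280.6, rank 1179) they were 690, 1567 and 3860. Both counted as supported by all 3 replicates, the second only just in replicate 3. The promoter peak of bmm recurred less. Its summit lay 82 bp upstream of the TSS and 297 bp upstream of that of Tdrd3, a neighbour on the other strand (chr3L:14786296-14786691, signal 219.0, rank 1923). Replicate 3 had it at rank 969, but replicates 1 and 2 at 13740 and 14746, with their best promoter summits 27 and 55 bp downstream of the TSS at ranks 4175 and 2525. A pooled-list summit of rank 14440, found in replicate 3 alone at rank 7913, lay 307 bp upstream of bmm and 72 bp from the TSS of Tdrd3.

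AkhR, the receptor through which Akh mobilises fat and glycogen, had no optimal peak. The gene (FBgn0025595, chr2L:6711286-6716186, minus strand) held 5 pooled-list peaks. Its best, of rank 5918 (signal 118.3, q = 0.00177), lay 1422 bp upstream but only 17 bp from the TSS of the neighbour Aatf, with no summit in replicate 1 and ranks 3548 and 3328 in replicates 2 and 3. At its own TSS the best pooled summit, 229 bp upstream, had rank 26729 (signal 43.6, q = 0.555), and only replicate 3 had a summit there, at rank 28419. The AkhR promoter thus had a summit only in the tail of the lists.

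Of the gluconeogenic genes, PCB, which encodes pyruvate carboxylase, had the most peaks and the longest window. Per 10 kb, Pepck1 held more optimal peaks (3.01, against 2.02 for PCB). For pooled-list peaks Pepck2 and PCB were alike, at 8.12 and 8.09 per 10 kb. PCB lies at chr2R:9850703-9861543 on the minus strand (FBgn0027580) and held 3 optimal and 12 pooled-list peaks. The strongest (chr2R:9860858-9861253, signal 243.4, rank 1556) had its summit 487 bp downstream of the first TSS and 297 bp upstream of the second. Replicate 3 had it at rank 953, and replicates 1 and 2 had no summit within 100 bp. Replicates 1 and 2 instead had summits at 355 and 359 bp, of ranks 1643 and 1147, near a pooled-list summit at 288 bp that ranked only 19049. Each replicate therefore had a strong summit in this stretch, but not at the same place.

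The other optimal peaks of PCB lay upstream. The peak at 520 bp (chr2R:9861865-9862260, signal 214.6, rank 2012) had ranks 1100, 2442 and 11115. The peak at 1220 bp (chr2R:9862565-9862960, signal 174.3, rank 3019), 801 bp from the TSS of CG30010, had ranks 2028 and 1268 and no summit in replicate 3. These peaks were the reverse of the first, carried by replicates 1 and 2. The third TSS of PCB had no summit within 500 bp in any list.

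The phosphoenolpyruvate carboxykinase genes Pepck1 and Pepck2 lie next to each other on the plus strand. Pepck1 (FBgn0003067, chr2R:18536767-18539416) held 2 optimal and 4 pooled-list peaks. The promoter peak (chr2R:18536492-18536887, signal 180.9, rank 2799), 77 bp upstream of its TSS, had ranks 2144, 4171 and 4275, so every replicate had it but only replicate 1 within its 3915 strongest. CG45087 has the same TSS position, so the peak cannot be assigned to 1 of them. The other peak of Pepck1 (chr2R:18539830-18540225, signal 190.7, rank 2533; ranks 2730, 2561 and 3974) lay past the gene's end, 59 bp downstream of the TSS of Rgk2.

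Pepck2 (FBgn0034356, chr2R:18527430-18535749) counted an optimal peak only because the Pepck1 promoter peak falls in its window. At its own TSSs it had pooled-list summits. That at the first TSS, 45 bp upstream (signal 109.2, rank 6724, q = 0.00498), had no summit in replicate 1 within 100 bp and ranks 8906 and 23549 in replicates 2 and 3. Replicate 1 had its own summit 73 bp downstream of the first TSS, at rank 5002. The pooled-list summit at the second TSS, 15 bp downstream, had rank 17928 and was found within 100 bp in replicate 3 only, at rank 19303. Replicate 2 had its own summit 125 bp upstream of the second TSS, at rank 8612.

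The fructose bisphosphatase gene fbp (FBgn0032820, chr2L:19761587-19764136, minus strand) had 4 pooled-list peaks and 0 optimal ones. A pooled-list summit lay 5 bp upstream of its TSS (signal 126.5, rank 5300, q = 0.00104). Replicate 2 had it at rank 1957, while replicates 1 and 3 had no summit within 100 bp and had their best promoter summits, of ranks 8666 and 5068, near a pooled-list summit of rank 15262, 205 bp upstream. Of the genes with windows of like length, 43.0% had a peak of rank 5300 or better, and 46.2% one as good as that of AkhR.

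The coactivator gene srl, the fly relative of the mammalian PGC-1 coactivators of mitochondrial genes, had a peak at its start. The gene (FBgn0037248, chr3R:4422483-4429335, minus strand) held 1 optimal and 5 pooled-list peaks. The optimal peak (chr3R:4429101-4429496, signal 211.5, rank 2069) had its summit in the 5' UTR, 36 bp downstream of the only TSS, and ranks of 1996, 2453 and 3997. Replicate 3 missed support by a small margin. Among genes with windows as long, 32.4% had a peak of that rank or better.

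**Figure D4:**
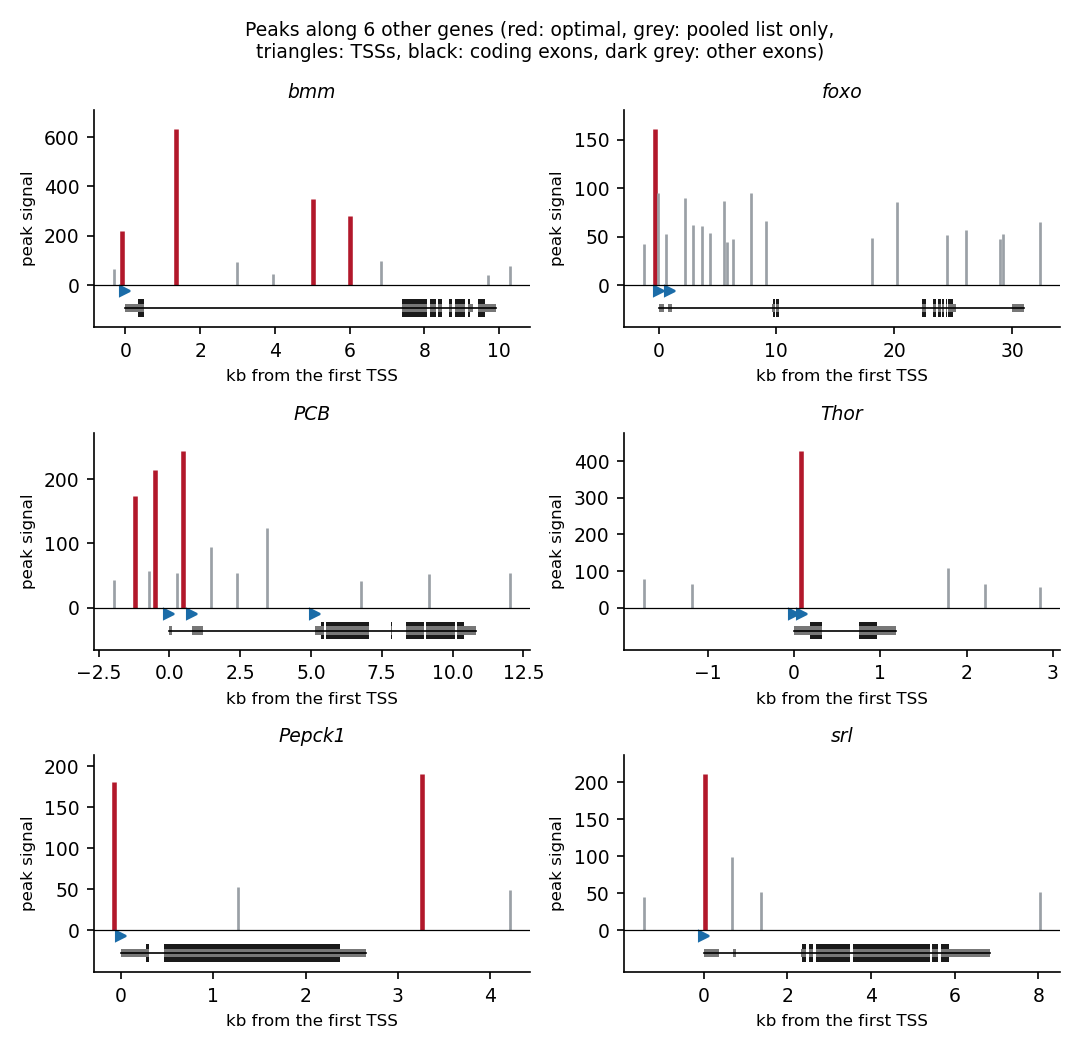
Peak signal of the pooled list (authors' units, a scale for each panel) along bmm, foxo, PCB, Thor, Pepck1 and srl, by distance from the first TSS in kb, with optimal peaks in red and other pooled-list peaks in grey. Thor and srl had a single optimal peak at the gene start, whereas the highest peak of bmm, signal 633.4, lay in its first intron.

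Read by TSS rather than by peak, 3 of the 10 genes, InR, Thor and PCB, had a summit within 500 bp of a TSS among the 3915 strongest peaks of each replicate, compared with 10.9% of all protein-coding genes. A promoter peak of the optimal list supported by all 3 replicates within 100 bp was found at 2 of 10, InR and Thor, against 9.67%. PCB was lost between these counts through the different summit places given above. Among the 90 pooled-list peaks that are not optimal, 30 had q under 0.05, 16 had a summit in all 3 full replicate lists and 5 in none. In the whole pooled list 10663 of 30000 peaks had q under 0.05, and all 3915 optimal peaks were among them. The recurrence counts over all pooled-list peaks that are not optimal were not made. These counts therefore do not set the 10 genes apart.

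The replicates that supported a peak moved with its GC content. Over all optimal peaks, the median GC content within 100 bp of the summit was 32.6% for the 248 peaks supported by replicate 3 only, 44.3% for the 238 of replicate 1 only and 41.8% for the 193 of replicate 2 only. Under 30% GC lay 33.5%, 1.26% and 4.66% of them. The 1959 peaks supported by all 3 had a median of 37.8%, with 14.8% under 30% GC, close to the 38.8% and 13.2% of all optimal peaks. Of the 10 genes, the peaks supported by replicate 3 only were those at the promoters of foxo (29.4% GC), bmm (28.9%) and PCB (27.4%). Those of replicate 1 only were InR at 34508 bp (49.2%) and the Pepck1 promoter (61.2%). The strongest bmm peak, at 27.4% GC, was in the first 275 ranks of all 3. The part of base composition in the promoter calls of foxo, bmm and PCB was not tested.

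**Figure D5:**
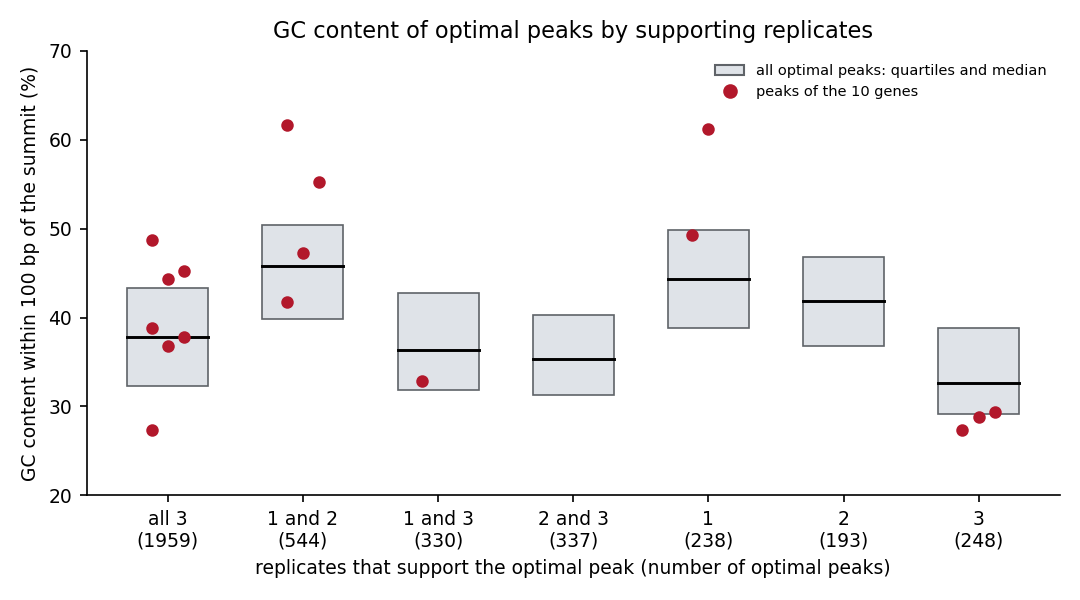
GC content within 100 bp of the summit (%) by the replicates that support an optimal peak, with boxes for the quartiles and median of all optimal peaks in that class and red points for the 17 peaks of the 10 genes. The 3 red points in the class of replicate 3 lie under 30%, below the lower quartile of 29.2% or close to it.

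The full CRE palindrome TGACGTCA lay near none of these summits. It was absent within 100 bp of all 17 optimal and all 107 pooled-list summits, and was present at 0.587% of all optimal peaks and in 0.275% of windows of the same length around TSSs. In the whole pooled list of 30000 peaks, 189 palindromes lay that near a summit. At shares this low, absence from these summits does not set the 10 genes apart. The windows of the 10 genes held 2 such palindromes, 0.122 per 10 kb against 0.141 over the chromosomes. These lay at 2 of the 10 genes, Pepck2 and fbp, and 11.1% of all protein-coding genes have at least 1. Within 500 bp of a TSS there were 0 of 10, against 2.04%. The Pepck2 palindrome, in an intron 671 bp upstream of the second TSS, was 149 bp from the nearest pooled summit, of rank 18906, inside the intervals of that and a neighbouring pooled-list peak but outside the searched distance. That of fbp, printed above, lay 1102 bp upstream of the TSS and 331 bp from the nearest, of rank 10074. On the chromosomes as a whole, 9.98% of 1894 palindromes lay within 100 bp of a pooled summit and 1.27% of an optimal summit.

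In all, 9 motifs were searched on both strands of the 201 bp around each summit. The CRE core TGACG, which each palindrome holds on both strands, was found at 4 of the 17 optimal peaks, against 16.2% of all optimal peaks and 19.2% of TSS windows. The 4 were InR at 28460 and 34508 bp, bmm at 1342 bp and srl, and the match in the strongest InR peak lay 16 bp from the summit. The E-box CACGTG was found at 5 of 17, against 3.04% of all optimal peaks and 2.8% of TSS windows. It lay 33.5 bp from the summit of InR at 5813 bp, 34.5 bp from that of bmm at 5019 bp and 0.5 bp from that of srl. PCB had it near both upstream peaks, 35.5 and 91.5 bp from the summits at 520 and 1220 bp upstream, so 2 of the 5 share an upstream region. Within 50 bp of the summit 4 peaks had it (1.25% of all optimal peaks), and within 250 bp 5 (7.59%). CACGTG is a site that basic helix-loop-helix factors are known to read, and which protein was there was not measured.

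The forkhead site GTAAACA was found at 3 of 17 optimal peaks, against 9.76% of all optimal peaks and 6.12% of TSS windows. It lay 24 bp from the summit at Thor, 12 bp from that of bmm at 6012 bp and, as 2 matches at 70 and 94 bp, near that of bmm at 5019 bp. Both bmm peaks lie in the same intron. Within 50 bp of the summit 2 peaks had GTAAACA (5.82% of all optimal peaks), and within 250 bp 4 (18.9%). Counts this small do not set these peaks apart from the list. The DRE was found at 1 peak, the bmm promoter (3.88% of all optimal peaks), and the M1BP site GGTCACAC at 1, srl (3.22%). TATAAA was found at 6 (28.0%), and the GAGA repeat GAGAGAG (6.56%) and the AP-1 site TGACTCA (1.81%) at 0 of 17. These matches describe the letters only.

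Other genes of the same pathways were read from 5 lists, of which 46 genes were analysed here. An optimal promoter peak was found at 12 of the 46 (26.1%), compared with 18.7% of all protein-coding genes. An optimal peak in the window was found at 26 of the 46, against 32.7% of all protein-coding genes, a share that moves with window length. None of the 10 insulin-like peptides and binding proteins had an optimal promoter peak. In the insulin signalling list 4 of 9 had one. Its strongest was at sgg, a kinase that inhibits glycogen synthesis (signal 806.7, rank 130), followed by Pi3K21B, the regulatory subunit of the insulin-activated lipid kinase (261.0, rank 1347), and the InR adaptor Lnk (186.4, rank 2644).

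In the list of Akh signalling and lipid or glycogen release 4 of 12 had an optimal promoter peak. Among them were Glyp, the phosphorylase that breaks down glycogen (574.9, rank 278), the salt-inducible kinase gene Sik3 (306.8, rank 1020) and the lipase gene Lip4 (226.4, rank 1793). Akh itself, named here after its value was seen, had a single pooled-list peak in its window, of rank 28828. In the list of glucose, glycogen and trehalose synthesis 2 of 10 had one, the phosphoglucomutase gene Pgm1 (455.5, rank 429) and the glycogen synthase gene Glys (179.4, rank 2848). Of the partners of srl 2 of 5 did, the nuclear receptor gene ERR (215.0, rank 2003) and the deacetylase gene Sirt1 (188.6, rank 2587). A TSS of DnaJ-H also lay within 500 bp of the Sirt1 peak, so that peak cannot be assigned to 1 of them. All 3 replicates supported the promoter peaks of sgg, Glyp, Sik3, Lip4, Pgm1 and ERR. Those of Lnk, Glys and Sirt1 were supported by 2 replicates and that of Pi3K21B by 1.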

How the data were processed

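CrebB-GFP ChIP-seq of 3 biological replicates of whole embryos was read from peak lists. A text file that accompanies the lists states that each replicate, and all together, were called on dm6 against a control alignment and that an irreproducible discovery rate (IDR) threshold gave the optimal list. Aligner and peak caller are not given in the sources used here. The signal deposited by the authors for each peak is on a scale that is not stated and served to rank peaks within a list. The authors' lists give a −log10 q-value per peak, printed here as q. The deposited summit offset set the position.

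Coordinates, written from 1, are those of the deposited lists. Gene models are Ensembl release 115 and sequence is RefSeq Release 6. A peak belonged to a gene when its summit lay in the gene or within 2000 bp, was a promoter peak within 500 bp of a protein-coding TSS, and was supported by a replicate with a summit within 100 bp among its 3915 peaks of highest signal. Motifs were searched within 100 bp of the summit. No test was run, since there is 1 group and 10 genes are not replicates; counts stand beside the same counts over all genes or peaks. Replicates are biological per the labels. Depth is unknown, and the lists' fixed length of 30000 makes a missing summit depend on the other peaks of that replicate. The 1957 optimal peaks of highest signal, other distances, list depths, motif windows and each replicate left out were tried as alternatives. The counting was tested on simulated lists. Python 3.11.15 with pandas 2.3.3, numpy 2.4.6, scipy 1.17.1 and matplotlib 3.10.9 was used. The genes, gene lists and motifs were chosen with earlier results of these data known. Named were the 10 genes, their optimal peaks, their best and their TSS-near pooled-list peaks, genes whose TSS lay nearest to these, and the 10 other pathway genes of highest promoter signal.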

Additional observations from a re-analysis of the deposited data

How the results depend on the processing

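Of 72 alternative values of 16 results, 46 stayed within 1.5 times the reported value and 26 did not. With the higher-signal 1957 optimal peaks, the genes with an optimal peak fell from 8 to 4 (19.2% of all genes), those with one near a TSS from 7 to 4 (9.82%), and the peaks from 17 to 9. With q under 0.05, 47 of the 107 pooled-list peaks were left. Leaving out each replicate in turn, and asking for a summit in both of the others, which the reported counts did not ask, gave 3 to 6 genes with an optimal peak, 2 to 3 with one near a TSS, 7 to 11 optimal peaks, 36 to 59 pooled-list peaks and 6 to 7 genes with a pooled-list peak near a TSS. It gave 7 to 11 optimal peaks supported by every replicate kept. Support by at least 2 replicates, chosen after seeing the data, left 6 genes, 12 optimal peaks and 3 genes with one near a TSS. Support of optimal peaks by all 3 replicates, 7 as reported, was 4 with the first 1957 ranks of each replicate and 14 with all ranks. Within 50 bp of the summit TGACG matched 1 peak (8.35% of all optimal peaks) and the DRE 0 (2.04%). Within 250 bp TGACG matched 7 peaks (39.4% of all optimal peaks) and the M1BP site 2 (6.72%). At that distance the GAGA repeat matched 3 (17.4%) and the AP-1 site 1 (5.49%). These alternatives keep fewer peaks or shorter windows by construction, or more of them. The highest-signal peak of each of the 10 genes also had the smallest q of that gene, alone for 6 and tied for the others. No paired analysis was possible because there is 1 group, and the results come from no test.

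Unknown depth limits these lists. A rank far down a replicate list, or no summit in it, says only that the site was not among that replicate's stronger calls. Promoter calls at foxo, bmm and PCB rest on replicate 3 at the pooled summit, and windows of neighbouring genes share peaks, as at Pepck1 and Pepck2.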
